A study of Danio rerio with 20 samples.

Results

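Whole zebrafish embryos exposed to any of 3 small molecules that block hedgehog signalling were pooled and set against embryos given the solvent, to find changes of messenger RNA common to the compounds. The comparison used 20 of the 20 arrays of the series, chosen by the treatment in their titles: 15 compound arrays, 5 each for cyclopamine, SANT-2 and GANT-61, and 5 ethanol arrays. Each compound was present at 10 µM from 0.5 to 24 h after fertilization, and the controls received 0.1% ethanol over the same period. The labels state 100 embryos per treatment and independent replicates, and name no strain or genotype. They do not say whether the replicates came from separate clutches, so p-values measure the spread between these samples.

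Hedgehog ligands, among them sonic hedgehog from the notochord and floor plate, bind the receptor patched, which then stops holding back the membrane protein smoothened. Active smoothened lets the gli transcription factors turn on their target genes. In the zebrafish embryo this signal patterns the ventral neural tube, directs muscle precursors to the slow fibre fate and sets the midline and eye field. Smoothened is the target of cyclopamine, an alkaloid from corn lilies, and of the synthetic SANT-2, and GANT-61 acts further down, on the gli factors. Because the 3 compounds bind different sites or proteins, a pooled change can be shared by all of them or carried by 1 of them. The change per compound is given beside the pooled value for the called genes and for many others. Where a pooled value stands alone, it does not tell these apart.

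RNA was labelled with Cy3 and hybridised to 1-colour Agilent arrays on 4 slides. Levels are log2 intensities relative to the 75th percentile of the same array, so that 0 marks that percentile, and levels of different genes cannot be set against each other. The 75th percentile lay between 565 and 762 intensity units on slide 2 and between 1125 and 2060 on the other slides, and slide accounted for 90.2% of the first principal component, treatment for 6.45%. Slide was therefore a term of the model. Slide 1 held 2 ethanol arrays and each other slide 1. Probes well above background numbered 10038 to 12610 on an array. Of 21 markers of 8 embryonic tissues on the array, 20 were above background on all 20 arrays. In whole embryos, fewer cells of a type and less RNA per cell cannot be told apart.

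The pooled comparison gave few changes in the model with slide as its block. Of 11433 genes tested, 7 passed at an adjusted p under 0.05 in limma (0.0612% of all genes), 2 of them higher (0.0175%) and 5 lower (0.0437%) with the compounds. The 5 that fell were the ventral neural tube genes nkx2.2a and olig2, the eye field gene six6a, the small heat shock protein gene hspb9l and hnmt, which encodes the enzyme that inactivates histamine. Each of these 5 was far lower with cyclopamine and near its ethanol level with SANT-2 and GANT-61. The 2 that rose are known only as the transcripts TC341108 and ENSDART00000103035, to which the reference tables give no gene symbol, and both were higher with every compound.

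nkx2.2a, a transcription factor gene of the most ventral neural progenitors, had levels of -4.81, -4.84, -3.59, -4.87 and -4.58 on the 5 cyclopamine arrays. On the SANT-2 arrays it had -0.36, -0.68, -0.52, -0.75 and -0.81, and on the GANT-61 arrays -0.49, -0.42, -0.54, -0.99 and -0.36, against -0.69, -0.71, -0.35, -0.66 and -0.69 on the ethanol arrays. The cyclopamine arrays were all lower than every other array, while the SANT-2 and GANT-61 arrays overlapped the ethanol arrays. The pooled log2 change was -1.30 ± 0.14 (limma SE over 15 compound and 5 ethanol arrays; adjusted p = 0.000896). The change per compound was -3.92 with cyclopamine, -0.08 with SANT-2 (95% interval -0.44 to 0.29) and 0.08 with GANT-61 (-0.28 to 0.45). The F test of a difference among the compounds gave an adjusted p of 1.02e-09 for nkx2.2a. Without cyclopamine the pooled change of nkx2.2a turned to 0.040 (adjusted p = 0.941).

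A further ventral gene, olig2, which directs cells to become motor neurons and oligodendrocytes, showed the same arrangement. Its levels were -3.04, -2.55, -1.73, -2.85 and -2.04 with cyclopamine, 0.46, 0.41, 0.37, 0.21 and 0.10 with SANT-2 and 0.09, 0.56, 0.35, 0.34 and 0.29 with GANT-61, against 0.42, 0.21, 0.49, 0.51 and 0.30 with ethanol. The 5 cyclopamine arrays lay below all other arrays and the other compounds overlapped ethanol. The pooled change of olig2 was -1.02 ± 0.14 (SE; adjusted p = 0.0040), made up of -2.83 with cyclopamine, -0.16 with SANT-2 and -0.07 with GANT-61. The intervals for SANT-2 (-0.51 to 0.20) and GANT-61 (-0.43 to 0.28) include 0 and exclude a change of the size seen with cyclopamine.

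hspb9l had the largest pooled fall among the called genes. It is a small heat shock protein gene. Its levels were -4.59, -4.90, -3.78, -4.15 and -4.87 with cyclopamine, 0.05, -0.67, -0.16, 0.61 and 0.38 with SANT-2 and 0.05, -1.07, -0.43, 0.05 and -0.54 with GANT-61, against 0.14, -0.40, -0.06, 0.10 and 0.21 with ethanol. The cyclopamine arrays stood apart, and 3 GANT-61 arrays, replicates 2, 3 and 5, and SANT-2 replicate 2 were below the lowest ethanol array. The pooled change of hspb9l was -1.62 ± 0.21 (SE; adjusted p = 0.00323), with -4.46 for cyclopamine (22.0-fold lower), 0.07 for SANT-2 (interval -0.48 to 0.61) and -0.46 for GANT-61 (interval -1.0 to 0.09).

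For hnmt, the levels averaged -4.52 ± 0.26 with cyclopamine, -2.37 ± 0.15 with SANT-2 and -2.30 ± 0.28 with GANT-61, against -2.17 ± 0.11 with ethanol (SD, n = 5 each). Its pooled change was -0.88 ± 0.11 (SE; adjusted p = 0.00323), with -2.34, -0.17 and -0.12 for cyclopamine, SANT-2 and GANT-61. It was well above background on 4 of 5 cyclopamine arrays. six6a, a homeobox gene of the eye field and hypothalamus, averaged -4.60 ± 0.27 with cyclopamine, -3.23 ± 0.35 with SANT-2 and -3.21 ± 0.20 with GANT-61, against -3.04 ± 0.15 with ethanol (SD, n = 5 each). For both genes the cyclopamine arrays were below all ethanol arrays and the other compounds overlapped them. The hnmt medians with SANT-2 (-2.43) and GANT-61 (-2.44) were nevertheless below the lowest ethanol array (-2.30). Within slides, 13 of the 15 compound arrays were below every ethanol array of their slide for each gene. Above every such array were 2 for hnmt and 0 for six6a. The pooled change of six6a was -0.60 ± 0.10 (SE; adjusted p = 0.0410), with changes of -1.56, -0.12 and -0.12 for cyclopamine, SANT-2 and GANT-61, and it too was well above background on 4 of 5 cyclopamine arrays. The differences among the compounds passed for hnmt and six6a (adjusted p = 4.86e-08 and 2.61e-06).

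**Figure D1:**
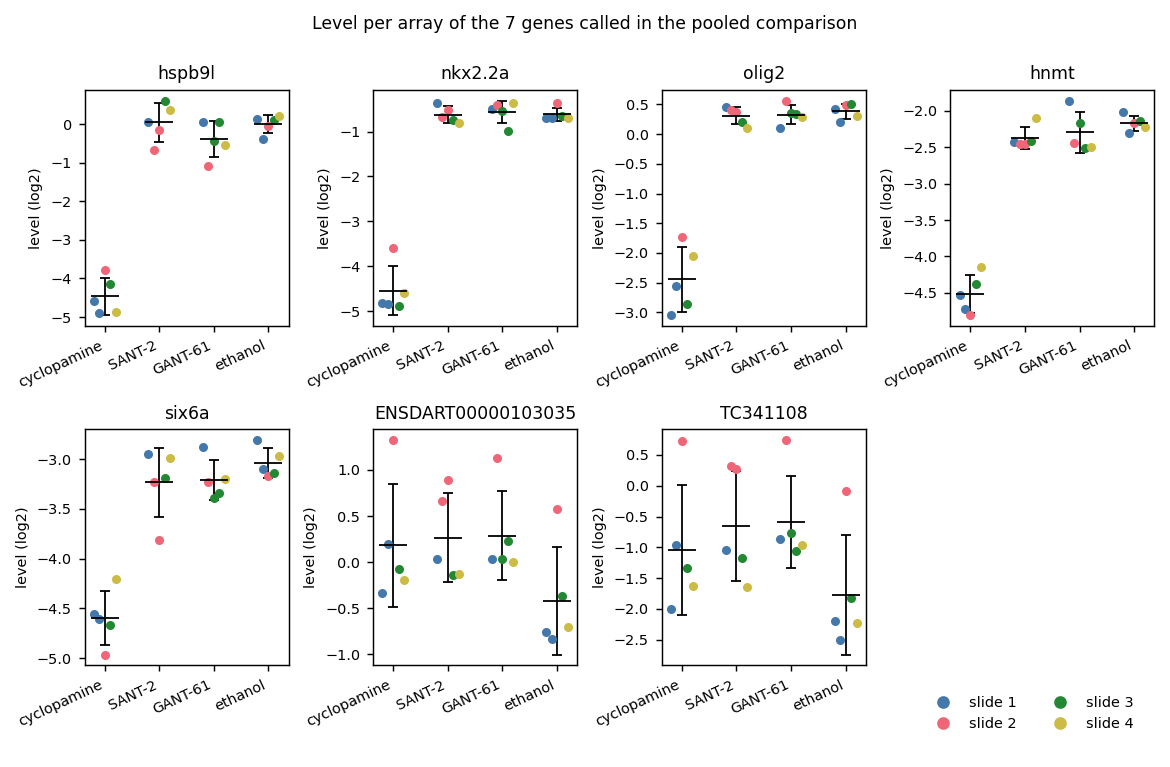
Levels per array (log2 intensity relative to the 75th percentile of the array) of the 7 genes called in the pooled comparison, by treatment, with the slide of each array as colour and the mean and SD as bars (n = 5 arrays per treatment). In the 5 genes that fell, the cyclopamine arrays stand far below the rest, and in the 2 transcripts that rose the slide 2 arrays are the highest of their treatment and ethanol is lowest within each slide.

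The 2 transcripts that rose moved with all 3 compounds, and their levels also differed between slides. The 3 changes are taken from the same 5 ethanol arrays, so their shared direction is not 3 independent observations. TC341108 had levels of -2.0, -0.97, 0.73, -1.34 and -1.62 with cyclopamine, -1.05, 0.32, 0.27, -1.17 and -1.64 with SANT-2 and -0.87, 0.74, -0.77, -1.06 and -0.97 with GANT-61, against -2.20, -2.51, -0.08, -1.82 and -2.23 with ethanol. The groups overlapped across slides, because the arrays of slide 2 were the highest, ethanol replicate 3 among them. Within slides they did not: 15 of 15 compound arrays were above every ethanol array of their own slide. Each slide but slide 1 holds 1 ethanol array. Compound arrays of a slide are thus set against the same ethanol values, and such counts, here and elsewhere, are not of independent comparisons. The pooled change was 0.87 ± 0.15 (SE; adjusted p = 0.0410), 1.83-fold higher, with 0.73, 0.74 and 1.15 for cyclopamine, SANT-2 and GANT-61. The test of a difference among the compounds did not pass for TC341108 (adjusted p = 0.314), and cyclopamine minus the mean of the others was -0.22, with an interval of -0.55 to 0.12.

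ENSDART00000103035 had levels of -0.33, 0.19, 1.32, -0.07 and -0.20 with cyclopamine, 0.03, 0.66, 0.90, -0.14 and -0.13 with SANT-2 and 0.03, 1.13, 0.04, 0.23 and -0.0041 with GANT-61, against -0.76, -0.84, 0.58, -0.37 and -0.71 with ethanol. Ethanol replicate 3, on slide 2, overlapped the compounds, and here too 15 of 15 compound arrays were above the ethanol arrays of their slide. The pooled change was 0.58 ± 0.10 (SE; adjusted p = 0.0451), 1.49-fold higher, with 0.60, 0.45 and 0.68 for cyclopamine, SANT-2 and GANT-61 and a difference among the compounds that did not pass (adjusted p = 0.552). With SANT-2 and GANT-61 pooled alone the changes were 0.94 for TC341108 and 0.56 for ENSDART00000103035, each at an adjusted p of 0.106.

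Over all genes, the arrangement within slides was uncommon. In 47 of 11433 genes (0.411%) each of the 15 compound arrays was above every ethanol array of its slide, and in 9 genes (0.0787%) each was below. This count was chosen after the values were seen.

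The changes of all 7 genes had 1 direction on each of the 4 slides. The genes were called from these same slides, so this describes the calls and is not separate evidence for them. Within slides the pooled difference ran from -1.47 to -1.18 for nkx2.2a, from -1.89 to -1.34 for hspb9l, from -1.27 to -0.75 for olig2 and from -1.06 to -0.69 for hnmt. It ran from -0.73 to -0.50 for six6a, from 0.67 to 1.22 for TC341108 and from 0.34 to 0.80 for ENSDART00000103035. The calls of nkx2.2a, hspb9l, olig2 and hnmt held without each of the 20 arrays in turn, with adjusted p of at most 0.0295. The other 3 calls depended on which array was left out. six6a passed without 7 of the 20 arrays (cyclopamine replicates 1, 3 and 5, SANT-2 replicates 2 and 3, GANT-61 replicates 1 and 2), with adjusted p up to 0.198 without the others. TC341108 passed without 6 (cyclopamine replicates 1, 2 and 3, SANT-2 replicate 2, GANT-61 replicate 2, ethanol replicate 4) and ENSDART00000103035 without 5 (cyclopamine replicates 1 and 3, SANT-2 replicate 2, GANT-61 replicate 2, ethanol replicate 4), with adjusted p up to 0.198 and 0.211. Without slide 1, which holds 2 of the 5 ethanol arrays, 0 of the 7 passed, nkx2.2a and hnmt having an adjusted p of 0.0846 and olig2 and hspb9l of 0.122. Without slide 3, hnmt (0.0516) and olig2 (0.0579) were also lost, without slide 4 hspb9l (0.0625), and without either slide six6a and both unnamed transcripts.

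**Figure D2:**
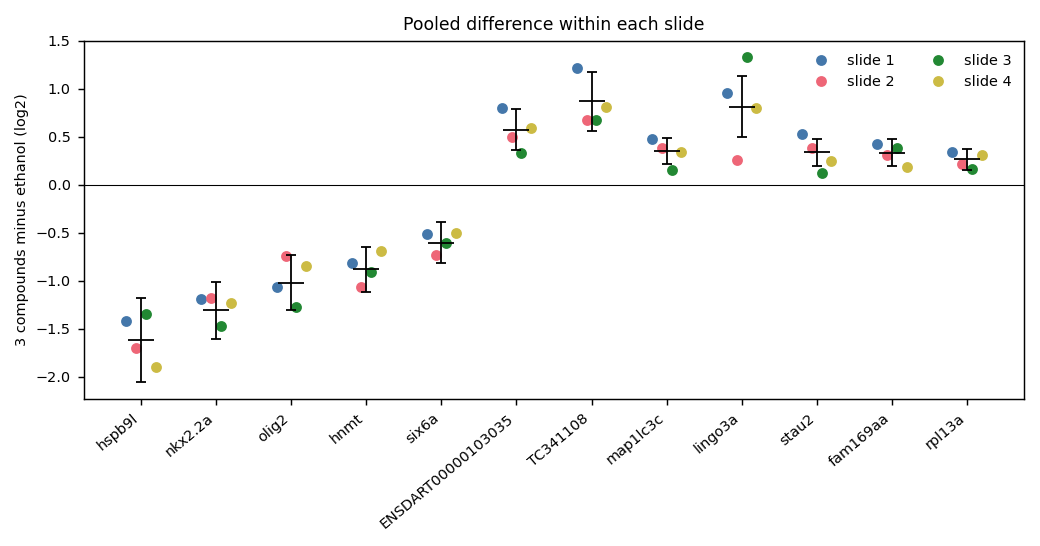
Pooled difference (mean of the 3 compounds minus ethanol, log2) within each of the 4 slides for the 7 called genes and the 5 named genes with the smallest p among rises that were not called, with the model estimate and its 95% interval as black bars. All 4 slides lie on the same side of 0 for each gene, and the genes were selected from these same slides.

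The comparisons of the compounds taken 1 at a time differed in how many genes they called. They share the 5 ethanol arrays. With cyclopamine 55 genes were higher (0.481% of 11433) and 193 lower (1.69%). With SANT-2 0 genes passed in limma (0%), and the smallest adjusted p was 0.880. At an unadjusted p under 0.05 there were 398 genes (3.48%), fewer than the 572 expected by chance. With GANT-61 175 genes were higher (1.53%) and 21 lower (0.184%). These 175 and 21 became 86 and 26 with quantile scaling, 105 and 33 with median scaling and 86 and 23 with the authors' deposited values. The F test among the compounds called 475 genes (4.15%).

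Several of these counts rested on particular arrays. The GANT-61 count of 196 fell to 73, 51 and 30 without ethanol replicates 1, 2 and 5, to 39, 76 and 39 without GANT-61 replicates 1, 3 and 5, and to 103 and 121 without cyclopamine replicate 4 and SANT-2 replicate 5, and was 13, 426, 71 and 23 without slides 1, 2, 3 and 4. The cyclopamine count of 248 was 486 with the replicate number as a block beside slide, 149 without ethanol replicate 1 and 158 without cyclopamine replicate 4. Without cyclopamine replicate 4 the count that differed among compounds was 290.

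Under the stricter reading of a common change, that a gene move the same way with each of the 3 compounds, 0 genes passed (0%; limma, the largest of the 3 p-values, smallest adjusted p = 1). That 0 follows from the 0 calls with SANT-2 alone, since the largest of the 3 p-values cannot be below the SANT-2 p. It is not a separate result. At an unadjusted p under 0.05 for each compound, 158 genes passed (1.38%), 146 of them higher and 12 lower. TC341108 had the smallest such p (0.000903), followed by fam169aa (0.00202) and ENSDART00000103035 (0.00207). With SANT-2 and GANT-61 pooled against ethanol, 0 genes passed (0%; limma, smallest adjusted p = 0.106). An unadjusted p under 0.05 was found for 1044 (9.13%, with 572 expected by chance), 830 higher (7.26%) and 214 lower (1.87%). The 0 that passed became 26 without ethanol replicate 4, 1 without cyclopamine replicate 1, 16 without slide 3, 167 without slide 2 and 127 with array weights.

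In the pooled comparison 887 genes were higher (7.76%) and 420 lower (3.67%) at an unadjusted p under 0.05. The excess of higher genes depended on the scaling: 555 were higher and 652 lower with quantile scaling, 645 and 677 with median scaling, 541 and 673 with the authors' deposited values, and 66 and 39 with normexp background correction. The median change over all genes was 0.03, and 0.20 with the normexp correction.

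To describe the genes just beyond the threshold, those at an adjusted p under 0.10 were examined, a limit chosen after the values were seen. It held 82 genes, 55 higher (0.481%) and 27 lower (0.236%). The genes on the 2 sides differed in how the compounds contributed. Of the 27 lower genes, 25 also differed among the compounds by the F test, which called 4.15% of all genes, and their median changes were -2.17 with cyclopamine, -0.09 with SANT-2 and -0.12 with GANT-61. Of the 55 higher genes, 4 differed among the compounds and 51 were not called as differing, with median changes of 0.44, 0.37 and 0.63 for cyclopamine, SANT-2 and GANT-61. The 55 and 27 became 32 and 32 with quantile scaling, 42 and 47 with median scaling, 29 and 30 with the authors' deposited values, and 0 and 0 with the normexp correction. Leaving out 1 array at a time, the 82 ranged between 4, without ethanol replicate 1 or 5, and 166, without SANT-2 replicate 2. The loss fell on both sides. Without ethanol replicate 1, 2 or 5, 0 genes were higher at this limit, against 55 with all arrays. The lower genes numbered 4, 6 and 4 in that order, against 27 with all arrays. Over the other settings the 82 ranged between 0, with the normexp correction or the compound arrays as 1 group, and 543, with array weights.

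**Figure D3:**
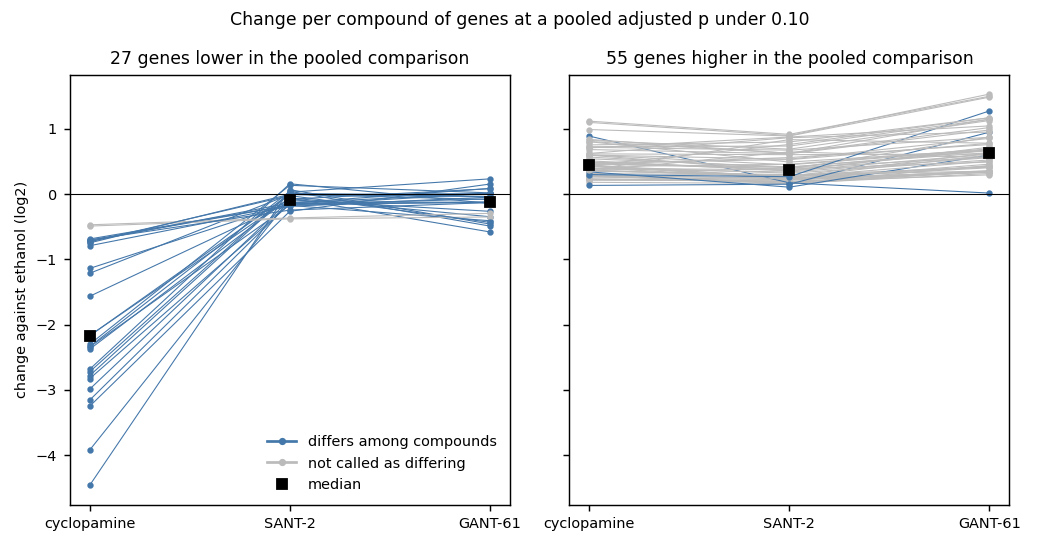
Change against ethanol (log2) with cyclopamine, SANT-2 and GANT-61 for the 27 lower and 55 higher genes at a pooled adjusted p under 0.10, 1 line per gene, with blue lines for genes that differ among the compounds and black squares for the medians. The lower genes fall to a median of -2.17 with cyclopamine and stay near 0 with the other compounds, while the higher genes lie above 0 with each compound.

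Among the 5 named genes with the smallest p on the higher side, none of which was called (adjusted p = 0.0747 for each), 4 were not called as differing among the compounds. lingo3a, of a family of neuronal membrane proteins, had levels of -5.99 to -4.52 on the 15 compound arrays (median -5.07) and of -6.32, -6.33, -4.92, -6.38 and -6.36 on the ethanol arrays. Ethanol replicate 3 stood above the other ethanol arrays, and 15 of 15 compound arrays were above the ethanol arrays of their slide. Its pooled difference was 0.81 ± 0.15 (SE), with 0.62, 0.87 and 0.95 for cyclopamine, SANT-2 and GANT-61, and it was well above background on 14 compound arrays but on 3 ethanol arrays, so that it was tested on account of the compound arrays and its ethanol values are partly near background. 

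fam169aa, whose function is little known, had levels of -3.84 to -3.33 with the compounds (median -3.52) and of -4.07, -3.92, -3.85, -3.78 and -3.96 with ethanol. Its pooled difference was 0.33 ± 0.07 (SE), with 0.35, 0.30 and 0.35 for the compounds in the same order. stau2, which encodes a protein that binds double-stranded RNA, had 1.56 to 2.13 with the compounds (median 1.76) and 1.35, 1.21, 1.60, 1.55 and 1.42 with ethanol, a difference of 0.34 ± 0.07. In fam169aa and stau2 all 15 compound arrays were above the ethanol arrays of their slide, and across slides 1 compound array of each, SANT-2 replicate 5 for fam169aa and SANT-2 replicate 4 for stau2, lay below the highest ethanol array. map1lc3c, of the LC3 family of autophagy proteins, differed by 0.35 ± 0.06, with 0.34, 0.11 and 0.60, and these did differ among the compounds (adjusted p = 0.00414).

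Differences of at least 0.5 with each compound at a pooled adjusted p under 0.10, selected after the values were seen, were found for unnamed transcripts and 7 genes with a symbol. The 7 were lingo3a, the oestrogen receptor gene esr2b, the oocyte transcription factor gene figla, the cytochrome P450 gene cyp2k6, the neuropeptide Y receptor gene npy8br, the organic anion transporter gene slco2b1 and the nucleoside kinase gene uck1. Their pooled differences ranged from 0.66 for slco2b1 to 0.91 ± 0.21 (SE) for figla, and adjusted p from 0.0747 to 0.0940. cyp2k6 had levels of -2.46 to 0.22 with the compounds (median -1.53) and of -2.72, -3.20, -0.67, -2.34 and -2.75 with ethanol. As in TC341108, its slide 2 arrays were highest, and 15 of 15 compound arrays were above the ethanol arrays of their slide. figla was well above background on 3 of 5 ethanol arrays. Like lingo3a, it was thus tested on account of the compound arrays, and its ethanol values are partly near background. esr2b averaged -3.29 ± 0.84, -2.98 ± 0.97 and -3.12 ± 0.68 with cyclopamine, SANT-2 and GANT-61, against -4.00 ± 0.87 with ethanol (SD, n = 5 each).

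Other higher genes at this limit were carried by 1 compound. her3, which encodes a repressor of neural differentiation, had 0.49, 0.40, 0.00, 0.54 and 0.60 with cyclopamine, -0.51, -0.31, -0.53, -0.19 and -0.15 with SANT-2 and -0.53, -0.49, -0.37, -0.39 and -0.43 with GANT-61, against -0.51, -0.52, -0.74, -0.53 and -0.12 with ethanol. The cyclopamine arrays were above all others. By the tests per compound her3 rose with cyclopamine (0.89, adjusted p = 2.35e-05) and was not called with the others, and the F test among the compounds passed (adjusted p = 4.55e-05). nanog, a regulator of the early embryo, and odf3l2a, of a family of sperm tail proteins, rose with GANT-61 (0.95 and 1.28, adjusted p = 0.000561 and 0.000484). nanog had changes of 0.13 with cyclopamine and 0.15 with SANT-2, and odf3l2a had 0.30 and 0.27.

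On the lower side, 2 genes at this limit were not called as differing among the compounds, and hs2st1a was the 1 with a gene name. It encodes a sulphotransferase that modifies heparan sulphate. Its levels were -4.27 to -3.51 on the compound arrays (median -3.76) and -3.44, -3.01, -3.52, -3.50 and -3.38 on the ethanol arrays, and 15 of 15 compound arrays were below the ethanol arrays of their slide. The pooled difference was -0.38 ± 0.09 (SE; adjusted p = 0.0921), with -0.47, -0.36 and -0.29 for cyclopamine, SANT-2 and GANT-61.

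The genes of the hedgehog pathway itself were not called. Of 19 components tested 0 passed in limma (0.0612% of all genes), and a list of this size is expected to hold none. An unadjusted p under 0.05 was found for 1 (11.4% of all genes), and the median pooled change was -0.0013, against 0.03 over all genes. The ligand genes shha and shhb differed by -0.07 and -0.06, smo, which encodes smoothened, by -0.06, and sufu, an inhibitor of the gli factors, by -0.05 (adjusted p = 0.764 to 0.842). gli3, a gli factor gene, had the smallest p of the list, with a difference of 0.31 ± 0.09 (SE; adjusted p = 0.161) and 0.39, 0.17 and 0.36 for cyclopamine, SANT-2 and GANT-61. gli2a and gli2b differed by 0.02 and 0.20. The kinesin gene kif7 differed by -0.07 and the co-receptor gene cdon by 0.15.

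Of 24 genes known to respond to hedgehog signalling, 2 fell in the pool, nkx2.2a and olig2 (0.0437% of all genes), and 11 were lower and 0 higher at an unadjusted p under 0.05 (3.67% and 7.76% of all genes). The list's median was -0.23 in the pool, with -0.52, -0.0013 and 0.07 for cyclopamine, SANT-2 and GANT-61. The mean level of the 24 genes was -3.25 ± 0.24 with cyclopamine, -2.0 ± 0.09 with SANT-2 and -1.98 ± 0.12 with GANT-61, against -2.03 ± 0.12 with ethanol (SD, n = 5 each). In the comparisons per compound, 14 of the 24 were lower with cyclopamine (1.69% of all genes), and 0 were called with SANT-2 or GANT-61, while 15 differed among the compounds (4.15% of all genes). The pooled median turned to 0.11 with the normexp correction, below the median of 0.20 over all genes under that setting. 

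Among members that did not pass in the pool, foxf1 and foxl1, forkhead genes of the mesenchyme, differed by -0.72 and -0.72 (adjusted p = 0.0747 each), with cyclopamine changes of -2.17 and -2.30 and changes between -0.0034 and 0.14 with the other compounds. They were well above background on 3 and 2 of the 5 cyclopamine arrays. nkx2.9, which acts beside nkx2.2a, did not rise well above background on any cyclopamine array, 0 of 5, but did on all others, and was at least 6.81-fold lower with cyclopamine than with ethanol. This bound takes for each cyclopamine array the higher of its lowest signal above background and the probe's own. nkx2.9 was not called in the pool (adjusted p = 0.101), and its changes with SANT-2 and GANT-61, where it was measured on all arrays, were -0.13 and 0.08. nkx3-2, a gene of the sclerotome and jaw cartilage, differed by -0.84 (adjusted p = 0.107), and en1a, a marker of muscle pioneer cells, by -0.99 (adjusted p = 0.152). Within slides, nkx3-2 differed from ethanol by -3.16 to -2.06 with cyclopamine, -0.14 to 0.32 with SANT-2 and -0.06 to 0.50 with GANT-61. For en1a these ranges were -2.63 to -1.82, -0.77 to 0.41 and -1.50 to 0.21. nkx6.1, of motor neuron progenitors, and foxa, of the floor plate, differed by -0.46 and -0.41 (adjusted p = 0.176 and 0.228), with cyclopamine changes of -1.58 and -1.50. vax1, vax2, pax2a, en2a and hhip differed by -0.01, 0.05, 0.02, 0.02 and -0.0013, each with an adjusted p above 0.9. For hhip the pooled value combined means on both sides of ethanol. Its level averaged -5.54 ± 0.61 with cyclopamine, -4.89 ± 0.23 with SANT-2 and -4.69 ± 0.42 with GANT-61. With ethanol it averaged -5.09 ± 0.19 (SD, n = 5 each).

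Muscle genes held no pooled call, and with 0.0612% of all genes called, lists of this size are expected to hold none. Of 9 slow muscle genes 0 passed and 6 were lower at an unadjusted p under 0.05 (3.67% of all genes), the list's median being -0.89, with -2.33, 0.04 and -0.15 for cyclopamine, SANT-2 and GANT-61. The mean level of the list was -0.16 ± 0.42 with cyclopamine, 1.56 ± 0.26 with SANT-2 and 1.39 ± 0.15 with GANT-61, against 1.48 ± 0.15 with ethanol (SD, n = 5 each). The contractile genes myl13, myl10, tnnc1b and tnni1c differed by -1.11, -0.93, -0.93 and -0.89 (adjusted p = 0.0747 to 0.0904). Each of these 4 genes fell with cyclopamine, by 2.99 for myl13 and 2.33 for tnnc1b at the ends of the range, and the F test among the compounds passed (adjusted p = 1.6e-06 to 3.25e-05).

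Of 27 fast and general muscle genes 0 passed and 4 were lower at an unadjusted p under 0.05 (3.67% of all genes). Their median was -0.24, with -0.21, 0.08 and -0.34 for cyclopamine, SANT-2 and GANT-61. chrna1, a subunit of the muscle acetylcholine receptor, differed by -0.43 ± 0.09 (SE; adjusted p = 0.0747), with -0.70, -0.17 and -0.41 for cyclopamine, SANT-2 and GANT-61, and 14 of 15 compound arrays were below the ethanol arrays of their slide. The mean level of the list ranged from 0.43 to 2.12 over cyclopamine arrays, 1.07 to 2.55 over SANT-2 arrays and 0.87 to 2.09 over GANT-61 arrays, against 1.01 to 2.18 over ethanol arrays, so the groups overlapped. In the heart list 0 of 11 genes passed, 6 were lower at an unadjusted p under 0.05, and the median of -0.17 was 0.11 with the normexp correction, under which the median over all genes was 0.20.

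**Figure D4:**
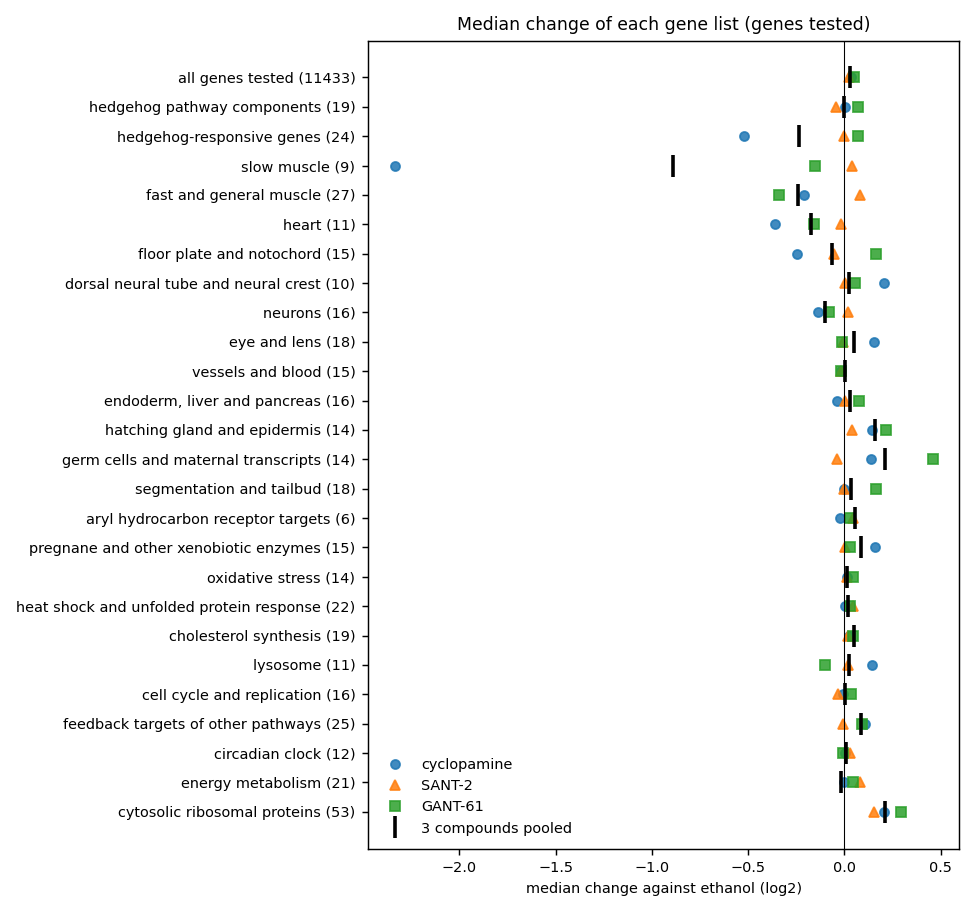
Median change against ethanol (log2) of each gene list with cyclopamine, SANT-2, GANT-61 and the 3 compounds pooled, with the number of genes tested in parentheses and all genes tested in the top row. The pooled medians of slow muscle, fast and general muscle and hedgehog-responsive genes lie lowest, at -0.89, -0.24 and -0.23.

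Other tissues gave single genes near the threshold. In the eye and lens list six6a was the 1 called gene of 18, where 0.0437% of all genes were called lower. At an unadjusted p under 0.05, 5 genes of the list were higher and 3 lower (7.76% and 3.67% of all genes). crygmx, a lens crystallin gene, differed by 0.66 ± 0.13 (SE; adjusted p = 0.0763), with 0.80, 0.49 and 0.68 for cyclopamine, SANT-2 and GANT-61. pts, which encodes an enzyme of pigment cell pteridine synthesis, differed by 0.51 ± 0.11 (adjusted p = 0.0825), with 0.57, 0.40 and 0.57. In pts 15 of 15 and in crygmx 14 of 15 compound arrays were above the ethanol arrays of their slide. vegfaa, the main growth factor of blood vessels, differed by -0.47 ± 0.09 (adjusted p = 0.0747), with -1.14 for cyclopamine and -0.14 and -0.13 for SANT-2 and GANT-61.

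Of 14 hatching gland and epidermis genes 0 passed (0.0612% of all genes) and 5 were higher at an unadjusted p under 0.05 (7.76% of all genes). The list's median of 0.16 was 0.01 with quantile scaling, 0.02 with the authors' values and -0.10 with the normexp correction. The keratin genes krt4 and krt8 differed by 0.36 and 0.25 (adjusted p = 0.198 and 0.227). Of 14 genes of germ cells and maternal transcripts 0 passed and 2 were higher at an unadjusted p under 0.05, with medians of 0.14, -0.04 and 0.46 for cyclopamine, SANT-2 and GANT-61 and 0.21 in the pool.

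Lists of general responses to chemicals held no called gene. As 0.0612% of all genes were called, lists of this size are expected to hold none. The cytochrome P450 gene cyp2k6, with a pooled difference of 0.87, is not in these lists. Of 6 aryl hydrocarbon receptor targets, 15 pregnane and other xenobiotic enzyme genes and 14 oxidative stress genes, 0 passed in the pool in limma, and 2, 1 and 0 were higher and 0, 1 and 0 lower at an unadjusted p under 0.05, where 7.76% of all genes were higher and 3.67% lower. The detoxification genes nqo1, gstp1.2 and gstm.1 differed by 0.13, 0.08 and 0.0041, with intervals of 0.01 to 0.26, -0.08 to 0.23 and -0.17 to 0.18. Of 22 genes of heat shock and the unfolded protein response 0 passed, 2 were higher and 1 lower at an unadjusted p under 0.05. The small heat shock protein genes hspb9l, which was called lower, and hspb6 are not in this list. The pooled difference of hspb6 was 0.41 ± 0.09 (SE; limma adjusted p = 0.0887), with 0.37, 0.26 and 0.60 for cyclopamine, SANT-2 and GANT-61. hspa8, a constitutive heat shock protein of the HSP70 family, differed by 0.36 ± 0.09 (SE; adjusted p = 0.0956), with 0.40, 0.25 and 0.43 for cyclopamine, SANT-2 and GANT-61. The medians of these 4 lists lay between 0.01 and 0.09, and those of oxidative stress and heat shock were below 0 under each of the 4 other scalings. The lists of 11 lysosome, 18 segmentation and tailbud, 16 cell cycle, 12 clock, 21 energy metabolism and 19 cholesterol synthesis genes likewise held 0 called genes, with 0, 0, 0, 1, 1 and 3 higher and 0, 0, 2, 0, 2 and 1 lower at an unadjusted p under 0.05 (7.76% and 3.67% of all genes). So did the lists of 15 floor plate and notochord, 10 dorsal neural tube and neural crest, 16 neuronal, 15 vessel and blood, 16 endoderm and 25 feedback target genes of other pathways, with 0, 3, 0, 1, 2 and 1 higher and 2, 0, 2, 2, 3 and 2 lower. In that order, 5, 1, 4, 3, 3 and 3 of them differed among the compounds (4.15% of all genes). With cyclopamine 3, 0, 3, 2, 3 and 0 were called lower (1.69%) and 0, 1, 0, 0, 0 and 1 higher (0.481%). The floor plate and notochord medians were -0.25, -0.05 and 0.17 for cyclopamine, SANT-2 and GANT-61, and the neuronal medians -0.14, 0.02 and -0.08.

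Ribosomal protein genes, listed after the values were seen, were all on the higher side in the reported scaling. Of 53 tested 0 passed, 7 had an adjusted p under 0.10 on the higher side (0.481% of all genes), 43 were higher at an unadjusted p under 0.05 (7.76% of all genes) and all 53 had a pooled change above 0, with a median of 0.21 and medians of 0.21, 0.15 and 0.30 for cyclopamine, SANT-2 and GANT-61. rpl13a had levels of 7.54 to 8.11 with the compounds (median 7.70) and of 7.31, 7.24, 7.82, 7.51 and 7.43 with ethanol, and 15 of 15 compound arrays were above the ethanol arrays of their slide, a difference of 0.27 ± 0.05 (SE; adjusted p = 0.0747). The direction of this list depended on the scaling: its median was 0.18 with median scaling, 0.01 with quantile scaling, where 30 of 53 were above 0, -0.0013 with the authors' deposited values, where 26 were, and -0.09 with the normexp correction, where 10 were.

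The number of pooled calls depended on the model. Taking the 15 compound arrays as 1 group, without a mean per compound, gave 0 calls in limma. In that model differences between compounds enter the error, and whether this accounts for the lost calls was not tested. Leaving out cyclopamine gave 0, leaving out SANT-2 31 and leaving out GANT-61 34. With the replicate number as a block beside slide there were 139 calls, 97 of them higher. Without slide 2 there were 102 calls, 89 of them higher, and with array weights 249, 199 of them higher, with the 7 reported genes among them under all 3 of these settings. Leaving out 1 array at a time gave 4 to 19 calls: 4 without ethanol replicate 1, 2 or 5, cyclopamine replicate 4, SANT-2 replicate 1, 4 or 5, or GANT-61 replicate 3 or 4, and 19, 14, 18, 11 and 12 without ethanol replicate 4, cyclopamine replicate 1, cyclopamine replicate 3, SANT-2 replicate 2 and GANT-61 replicate 2.

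**Figure D5:**
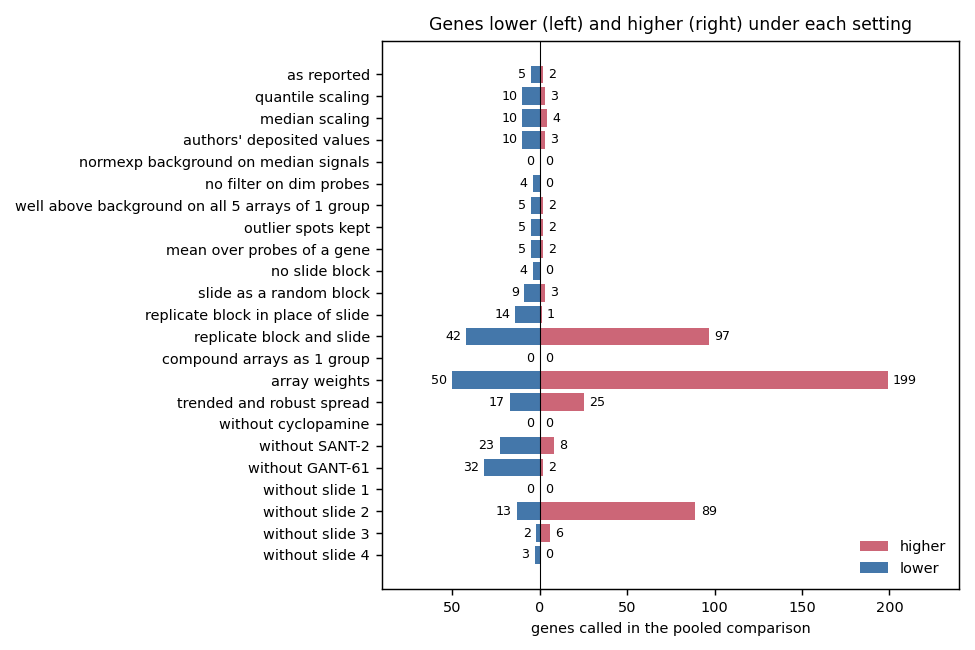
Number of genes lower (blue, to the left) and higher (red, to the right) at an adjusted p under 0.05 in the pooled comparison under each setting. The counts run from 0 to 249, with more lower than higher genes under quantile and median scaling and the authors' values, and more higher than lower genes without slide 2 and with array weights.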

How the data were processed

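Each scanner file gives spot intensities in Cy3 from which the background had been subtracted, per the file headers, by version 10.1.1.1 of Agilent's Feature Extraction, with no scaling across arrays. A table of log2 values that the authors deposited, already normalized, served as an alternative. Intensities were taken to log2, outlier spots were set aside (63 missing values among the genes tested), and each array's 75th percentile over non-control spots was subtracted. Of 14694 probes, 9185 matched 1 symbol in the reference gene table and 5509 none. The brightest probe stood for a gene. Of 14657 genes, 11433 (7859 with a symbol) were well above background on at least 4 of 5 arrays of a group and were tested. Precision is limited by the number of arrays.

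limma 3.58.1 in R 4.3.3 was fitted with a mean per treatment and slide as a fixed term. The pooled contrast was the mean of the 3 compounds minus ethanol. Because slides hold unequal numbers of arrays, a model estimate can differ from the difference of the plain means. Tests were two-sided, with Benjamini-Hochberg adjustment over all 11433 genes in each comparison. The threshold for a call was an adjusted p under 0.05. Lists are described by counts and medians, with no set test.

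The genes, lists and tests were chosen with earlier results of these data known. Named genes are, in each direction, the 12 largest called changes with a symbol, the 5 smallest p where fewer than 5 were called, and the 6 called genes not differing among compounds with the largest smallest change. Added to these are every tested hedgehog gene, up to 4 called members of each other list or, with none, the 2 of highest signal, and the 6 genes with a symbol and the smallest p among the compounds. The limit of 0.10, the list of ribosomal genes and the genes named at that limit were chosen after the values were seen. Alternatives were other scalings, background corrections, filters, blocks, weights and leaving out arrays, slides or compounds. The planned correction on mean signals was made on median signals, since the files analysed hold no mean signal column.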

Additional observations from a re-analysis of the deposited data

Results flagged for a closer look

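In 42 of 468 groups of 5 arrays tested over 117 named genes, the highest or lowest array lay far from the other 4 by Dixon's criterion. Chance marks about 1 group in 20. The groups are not independent, since genes share arrays. The values are levels (log2 intensity relative to the 75th percentile), and what set these arrays apart was not tested. Cyclopamine replicate 3, on slide 2, was the highest cyclopamine array for atf4a (5.86), atp5f1b (7.24), cox4i1 (5.70), hspa8 (8.57), krt4 (9.12), krt8 (8.50), map1lc3c (-2.92), mcm2 (6.42), mcm7 (8.24), nkx2.2a (-3.59), npy8br (-2.76), rpl13a (8.10), slco2b1 (-0.77) and vax2 (-4.42). It was the lowest for gpx4a (3.84). Cyclopamine replicate 4 was lowest for pax2a (-0.67), and cyclopamine replicate 5 for shha (1.40).

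SANT-2 replicate 2 was highest for apoa1a (4.09) and SANT-2 replicate 5 for hnmt (-2.10). GANT-61 replicate 2, on slide 2, was highest for ENSDART00000103035 (1.13), gata5 (1.48) and TC341108 (0.74). GANT-61 replicate 4 was lowest for foxa (0.75), nkx2.2a (-0.99) and scube2 (-4.64) and highest for desma (5.49), and GANT-61 replicate 5 was highest for vegfaa (-1.0). Ethanol replicate 3, on slide 2, was highest for gpr161b (0.08), krt4 (8.72), krt8 (8.20), lingo3a (-4.92), mcm2 (6.26), mcm7 (7.91), nkx2.2a (-0.35), odf3l2a (-3.60), rps6 (7.23) and TC341108 (-0.08), and lowest for ihhb (-5.28) and neurod1 (0.46). Ethanol replicate 2 was lowest for figla (-6.77) and highest for hs2st1a (-3.01), and ethanol replicate 4 was lowest for ift88 (-5.80).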

How the results depend on the processing

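The 7 pooled calls became 13, 14, 13 and 0 with quantile scaling, median scaling, the authors' deposited values and normexp correction, 4 without the filter on dim probes and 82 at an adjusted p under 0.10. They became 4 without a slide term, 12 with slide as a random block, 0 with the compound arrays as 1 group, 249 with array weights and 42 with a trended and robust spread. They became 0, 31 and 34 without cyclopamine, SANT-2 and GANT-61, and 0, 102, 8 and 3 without slides 1, 2, 3 and 4. Other counts are given in the same way. The 475 genes that differed among compounds became 15 with normexp, 181 without a slide term, and 156, 177 and 213 without slides 1, 3 and 4. The 248 cyclopamine calls became 10 with normexp, 100 without a slide term, 407 with array weights, and 75, 102 and 159 without slides 1, 3 and 4. The 196 GANT-61 calls became 112, 109 and 1 with quantile scaling, the authors' values and normexp, 98 without the filter, 18 without a slide term, 305 with array weights, and 13, 426, 71 and 23 without slides 1, 2, 3 and 4. The 355 genes with cyclopamine against the mean of the other compounds became 14 with normexp, 168 without a slide term, and 108, 165 and 222 without slides 1, 3 and 4. The 0 calls of SANT-2 and GANT-61 pooled became 127 with array weights, 2 with a trended and robust spread, and 167 and 16 without slides 2 and 3. The 3 called members of lists became 6, 7, 6 and 0 with quantile, median, the authors' and normexp values, 6 with a random block, 0 as 1 group, 27 with array weights, 12 with a trended spread, 0, 13 and 15 without cyclopamine, SANT-2 and GANT-61, and 0, 10 and 1 without slides 1, 2 and 3. Same-numbered cyclopamine and ethanol arrays correlated at 0.46 to 0.82, and all 5 pairs lay on 1 slide each. Slide 1 held replicates 1 and 2 of both groups, so number varied within it. For replicates 3, 4 and 5 of these 2 groups, number and slide cannot be told apart. Correlations with ethanol ran from -0.01 to 0.75 for SANT-2 and from -0.04 to 0.60 for GANT-61. Of these pairs 4 and 3 lay on 1 slide, so slide also enters these values. They do not decide whether the numbers mark pairs, and 18 of 20 arrays best matched an array of their own number in another group. The reported model holds slide and not the number, so its 7 calls take no account of such pairs. With a replicate block in place of slide, the pooled, SANT-2 with GANT-61 and list counts were 15, 1 and 8. With a replicate block and slide they were 139, 4 and 18, and cyclopamine had 486. Leaving out 1 array at a time gave 4 to 19 pooled calls, 290 to 538 among compounds, 149 to 302 for cyclopamine, 30 to 245 for GANT-61, 197 to 374 for cyclopamine against the others, 0 to 26 for SANT-2 with GANT-61 and 2 to 11 list members. SANT-2 alone had 0 calls under all settings that allow it, which also fixes at 0 the calls for each compound at once. nkx2.2a turned to 0.040 without cyclopamine. Its changes with the 2 compounds left, SANT-2 and GANT-61, were -0.08 and 0.08 in the reported model, against -3.92 with cyclopamine. six6a turned to 0.10 with normexp, and the cause of that change was not tested. Of the other named-gene values, 4658 stayed on their side of the threshold (those never called could change sign), 89 lost a call and 165 gained one. Normexp used median signals, was chosen after the files were seen, and signal over background limits dim genes such as nkx2.9.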
